A study of Homo sapiens with 2 samples.

Results

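Transcripts of 7 genes that encode RNA-binding proteins and splicing factors were examined among the RNAs recovered with the splicing factor USP39: KHDRBS1, ADAR, DHX9, PRRC2C, UBAP2L, SRRM2 and SCAF11. The genes were chosen by the presence of listed peaks and by what their proteins do, and their peaks are all of the 15 rows with these gene names among the 368 peaks of 161 genes. That they hold peaks is therefore how they were chosen and not a finding. For scale, 141 of the 7607 annotated protein-coding genes on the 8 chromosomes with any listed peak had at least 1 peak (1.85%). RNA immunoprecipitation sequencing (RIP-seq) had been carried out in A2780, an established ovarian cancer cell line, with ectopic expression of FLAG-tagged USP39. Cells were cross-linked, nuclei were lysed, and RNA held by an anti-FLAG antibody formed the RIP library, while 10% of the total RNA served as the input. Both libraries came from the same FLAG-USP39 genotype, 100 ng of RNA went into each, and each was made once, which leaves all values below without replicates. The peaks were used by position only, so they were not ranked by depth or enrichment, and the cell line was not checked against marker genes.

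USP39 is a component of the tri-snRNP, the particle that joins the assembling spliceosome before it becomes active. Introns are recognised at the 5′ splice site, nearly always GT in the gene, and at the 3′ splice site, which ends in AG after a tract rich in pyrimidines. Genes of RNA-binding proteins are themselves well known for regulated splicing, including introns that are kept in the transcript and exons that lead to decay of the RNA.

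Positions were set against the GENCODE release 44 annotation on hg19, with the canonical transcript of each gene as the reference. All 15 peaks overlapped an exon of the canonical transcript, as did 158 of 246 peaks of other protein-coding genes (64.2%). Of their 5785 bases, 4556 (78.8%) lay in coding sequence, 630 (10.9%) in a 3′ untranslated region (UTR), 599 (10.4%) in introns and 0 in a 5′ UTR. Exons made up 12.7% of the spans of the 7 transcripts and 89.6% of the peak bases. The peaks lay in 11 of 144 exons, never in a first exon, and in a last exon only at KHDRBS1 (2 peaks). Of the 15 peaks, 8 lay within 100 bp of an annotated splice site, 7 held a splice site of the canonical or another transcript or came within 50 bp of one, and 4 held a canonical splice site. The list was called in bins, of 210 bp for chromosome 1, 205 bp for chromosome 16 and 200 bp for chromosome 12, so a distance shorter than a bin is a distance from the bin edge and not from the bound base.

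**Figure D1:**
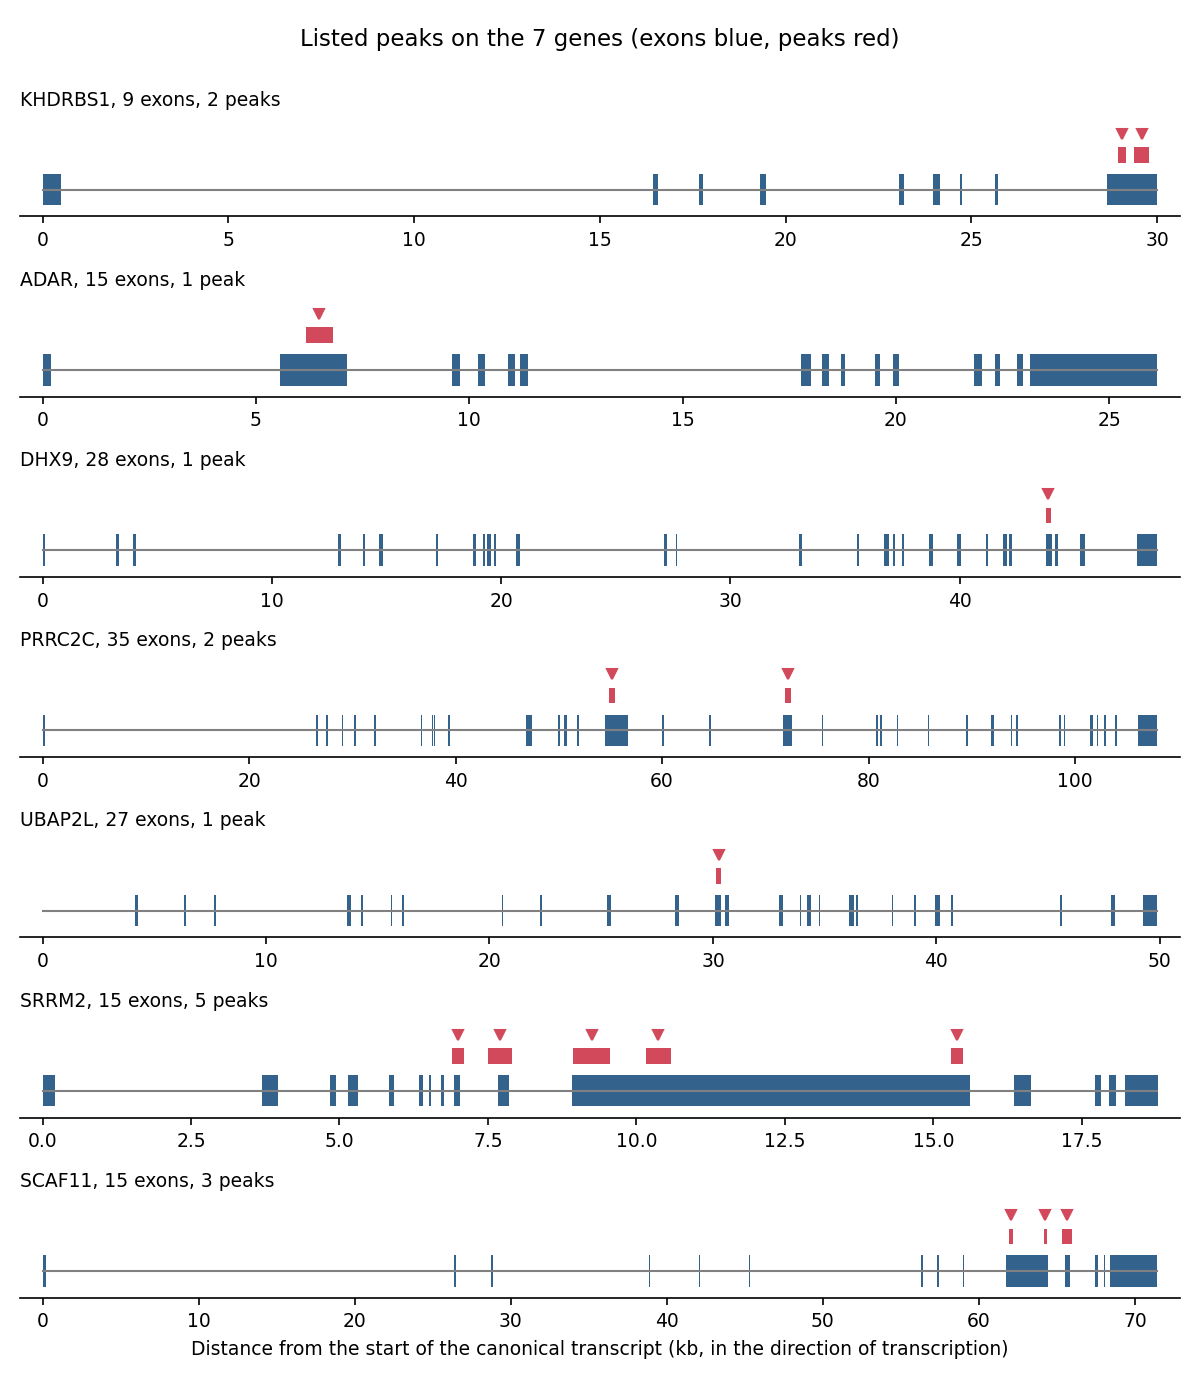
Canonical transcripts of the 7 genes drawn from their start in the direction of transcription (x axis in kb, a scale per gene), with exons as blue boxes and listed peaks as red boxes under red triangles. All 15 peaks lie over exons, and SRRM2 has the most with 5.

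The splice sites that peaks contained are shown because they are where a peak meets the unspliced transcript. Each sequence is from hg19, on the strand of the gene and 5′ to 3′, with 20 intron bases and 10 exon bases, and the capitals mark the intron bases next to the exon. The first 6 flank exons that lay wholly inside a peak, and the last is the canonical site inside the DHX9 peak.
SRRM2 exon 9, 3′ splice site, chr16:2809550-2809579: tggtggtggtcttccttcAGgtctcgaagt
SRRM2 exon 9, 5′ splice site, chr16:2809653-2809682: cccgcagtcgGTaaggggtagtccaggagg
SRRM2 exon 10, 3′ splice site, chr16:2810282-2810311: tcctcaattaactcctgcAGgtctcgaagt
SRRM2 exon 10, 5′ splice site, chr16:2810491-2810520: caagaaggagGTatgttcctgagttggtga
SCAF11 exon 12, 3′ splice site, chr12:46318848-46318877: agctttttttcttttgatAGattctagcct
SCAF11 exon 12, 5′ splice site, chr12:46318491-46318520: gcaattgcagGTatgtttttagcaactcaa
DHX9 exon 25, 3′ splice site, chr1:182852254-182852283: cactgtgctcctcttaacAGattgtttgtt

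All 7 carried the usual GT or AG. The first 10 exon bases printed for SRRM2 exons 9 and 10 were identical. Among the 20 intron bases before the 6 canonical 3′ splice sites within 100 bp of a peak, 12 (SRRM2 exon 9) to 16 (SRRM2 exon 11) were pyrimidines. Over all 137 introns of the 7 transcripts the median was 14.0, with a range of 9 to 18, these sites included.

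SRRM2 and SCAF11 encode SR-related proteins, which carry stretches of alternating serine and arginine. SRRM2 is a large scaffold of nuclear speckles, the bodies where splicing factors gather, and it held 5 peaks on chromosome 16. These peaks fell into 2 kinds. The peaks at 2809526 to 2809730 and 2810141 to 2810550 each spanned a short internal exon with intron on both sides, whereas the other 3 lay wholly inside exon 11. The first covered all 93 bp of exon 9 and 112 intron bases, and the second all 199 bp of exon 10 and 211 intron bases, so most of their bases were intronic in the canonical transcript. These were also the only members' peaks with bases of an annotated retained intron. Of the 112 intron bases around exon 9, 92 were exon in transcripts typed as retained intron, counted over several of them together, and around exon 10 all 211 were, in a single one. At the first of these peaks, 6 of 12 overlapping transcripts had that type, against 3 of 9 at the second. One transcript, SRRM2-205, read past the 5′ splice site at the end of exon 10, so that 249 of the peak's bases were exon and 208 of them coding.

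Exon 11 of SRRM2 was 6701 bp long and made up 74.1% of the mature transcript. It held the peaks at 2811576 to 2812190, 2812806 to 2813215 and 2817931 to 2818135, all of them coding throughout. The first began 14 bp after the 3′ splice site of the exon. The last ended 127 bp before its 5′ splice site, and the middle one lay 1244 bp from the 3′ splice site and 724 bp from the nearest 5′ splice site of any transcript. The 5 peaks were separated by gaps of 410, 1025, 615 and 4715 bp and covered 16.8% of the mature transcript. All 5 are typed as ncRNA in the list, which assigns them a non-coding transcript. In the whole list, all 94 peaks with a non-coding transcript had this type and 0 of the 274 with a coding one.

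SCAF11, a protein with a RING finger and an SR-rich region, held 3 peaks on chromosome 12, and its gene is read from the minus strand. They lay in exons 11 and 12 of 15, near the 3′ end of the gene. The peak at 46318401 to 46319000 took in the whole of exon 12 (347 bp, coding) with 253 intron bases, so that both of its splice sites were inside. No annotated transcript kept those intron bases, and the 1 of its 6 transcripts typed as retained intron covered exon bases of the canonical transcript only. The peaks at 46320001 to 46320200 and 46322201 to 46322400 were coding throughout and lay in exon 11, which at 2718 bp was the longest coding exon of the gene. The former came within 76 bp of the 5′ splice site of the exon and the latter within 242 bp of its 3′ splice site, so they sat near opposite ends of the same exon.

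Primers for spliced and unspliced SCAF11 RNA were used in the study's RT-PCR and were placed on hg19 by exact match to see where they stand against the peaks. In the sequences below the capitals mark bases of exon 3 in the primer that crosses the junction of exons 2 and 3, and the other 2 primers lie wholly in 1 segment.
SCAF11 mRNA forward, from base 299 of the mature transcript: tggaagGTGAAGAAAACGGAG
SCAF11 mRNA reverse, exon 3, chr12:46355527-46355548: agctttctggaaaaccaacttc
SCAF11 pre-mRNA forward, intron 2, chr12:46357817-46357839: tccaaactgtccacttgtataca

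The pre-mRNA reverse primer had no exact match in hg19 and was not placed. The mRNA reverse primer was 33127 bp and the pre-mRNA forward primer 35417 bp from the nearest SCAF11 peak. The placed primers thus lay between exon 2 and exon 3, while the peaks lay at exons 11 and 12. What the pre-mRNA pair amplifies is not defined here, since its reverse primer was not placed. By RT-PCR the paper reported more pre-mRNA and less spliced mRNA after USP39 knockdown, for SCAF11 among other genes.

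ADAR and DHX9 encode proteins that bind double-stranded RNA. ADAR deaminates adenosine to inosine, and the gene gives a long interferon-induced form, p150, and a shorter form, p110, which starts at a later methionine. Its peak, on chromosome 1 at 154573861 to 154574490, covered 630 bp of exon 2 of 15 and was coding throughout in the canonical transcript. Exon 2 was the longest coding exon of the gene at 1586 bp, and only the last exon, mostly 3′ UTR, was longer (2987 bp). The peak lay 344 bp from the 5′ splice site and 612 bp from the 3′ splice site of the canonical transcript.

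Whether the ADAR peak is coding or untranslated depends on the transcript. A start codon of 13 transcripts lay inside the peak at position 154574232. The longest coding sequence from it among the 13 was 2793 bp, against 3678 bp in the canonical transcript. In transcripts that start there, 372 of the 630 bases were coding and, in all but 1 of the 13, the 258 bases before it were 5′ UTR. Of the 27 transcripts across the peak, 5 were coding over its whole length, 18 held coding bases in it and 9 had none. The start codon is shown in capitals, on the strand of the gene.
ADAR start codon inside the peak, chr1:154574215-154574244: gagtttttagacATGgccgagatcaaggag

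One transcript, ADAR-225, lacked a segment of 147 bp, from 154574365 to 154574511, that the annotation gives as an intron inside exon 2. It removed 126 bases of the peak, and its ends are the only splice sites within 100 bp of the peak, the 3′ end inside it and the 5′ end 22 bp away. The capitals again mark the intron bases next to the exon.
ADAR-225, 5′ splice site, chr1:154574492-154574521: ctccactcagGCttggaaccagcacagcgg
ADAR-225, 3′ splice site, chr1:154574355-154574384: ttattgcagtctcagctcAGgcttggaacc

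The 5′ end reads GC, the only 5′ splice site among the 8 within 100 bp of a peak without GT. The segment was 81.6% identical, base by base without gaps (120 of 147), to the 147 bases on its lower-coordinate side, and 41 bp at its ends were an exact direct repeat. The part of this repeat in the annotation of the segment, or in the placing of reads, was not tested. Transcripts typed as retained intron (7) or as targets of nonsense-mediated decay (5) also crossed the peak, but with exon 2 sequence, and 0 bases of a retained intron lay in it.

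DHX9 is an RNA helicase that unwinds double-stranded RNA and RNA-DNA hybrids. Its peak, on chromosome 1 at 182852251 to 182852460, was 210 bp wide and covered 187 coding bases of exon 25 of 28 and 23 bases of the intron before it. The 3′ splice site of the exon was inside the peak and the 5′ splice site 43 bp beyond it. The list types the peak as ncRNA and assigns it a non-coding transcript of the gene. A transcript without a defined coding sequence, DHX9-202, splices out a segment of 103 bp within the exon, from 182852352 to 182852454, both ends of which lay inside the peak. Its length is not a multiple of 3.
DHX9-202, 5′ splice site, chr1:182852342-182852371: ctggcctttgGTgtgtaccccaatgtatgc
DHX9-202, 3′ splice site, chr1:182852435-182852464: tctgttaattgtccttttAGtagccaagac

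The DHX9 peak was the only one of the 15 with a near-identical copy elsewhere in hg19. A processed pseudogene, DHX9P1, on chromosome 13 at 77561891 to 77562080, matched 189 bp of the peak with 96.8% identity, and the match ran from 182852272 to the end of the peak. It took in all of the exon bases and 2 of the intron bases. A pseudogene on chromosome 11 at 85164129 to 85164303 matched 177 bp with 92.7% identity. How multiply aligned reads were treated is not given in the sources used here, and whether reads of DHX9P1 entered this peak was not tested. Of the 353 peaks of other genes, 48 (13.6%) had a copy by the same criteria, 95% identity or more along 80% or more of its length.

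KHDRBS1, also called Sam68, binds RNA through a KH domain and regulates alternative splicing. Its 2 peaks, on chromosome 1 at 32508421 to 32508630 and 32508841 to 32509260, lay wholly in the 3′ UTR, the only untranslated positions among the 15 peaks in the canonical transcripts. Both were in exon 9 of 9, which was 1351 bp long and the longest of the gene. They were 210 bp apart and together covered 23.2% of the mature transcript. The nearest 3′ splice site was 293 bp and 713 bp away. One transcript without a defined coding sequence, KHDRBS1-203, leaves exon 9 at a splice site 101 bp before the first peak and removes 2611 bp, from 32508321 to 32510931, so both peaks lay inside an intron of that transcript and in exon in the other 2. The first peak had a GC content of 24.3%, below the 29.0% of the lowest of the 291 genic peaks of other genes and against 47.0% for the mature KHDRBS1 transcript. The second had 36.0%.

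PRRC2C and UBAP2L encode proteins of stress granules, the cytoplasmic bodies that form when translation stops. Both PRRC2C peaks, on chromosome 1, were 630 bp wide and coding throughout. The peak at 171509521 to 171510150 lay in exon 16 of 35, the longest exon (2259 bp), at 411 bp from its 3′ splice site and 1218 bp from its 5′ splice site. The peak at 171526531 to 171527160 lay in exon 19 (904 bp) and covered 69.7% of it, with 122 bp left to the 5′ splice site and 152 bp to the 3′ splice site. PRRC2C was the only gene of the 7 besides KHDRBS1 with no peak within 100 bp of an annotated splice site.

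The UBAP2L peak, on chromosome 1 at 154223581 to 154223790, lay in exon 13 of 27 and covered 75.5% of its 278 bp, all coding. It ended 4 bp before the 5′ splice site and began 64 bp after the 3′ splice site, both distances well under the bin of 210 bp. All 7 transcripts across it had the exon with the same ends, and no alternative or retained segment touched it. The sites are shown for comparison with those inside peaks.
UBAP2L exon 13, 3′ splice site, chr1:154223497-154223526: tactgggtttcctcttgcAGatttgaagaa
UBAP2L exon 13, 5′ splice site, chr1:154223785-154223814: gacttctaagGTacttaaacttttaggtag

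**Figure D2:**
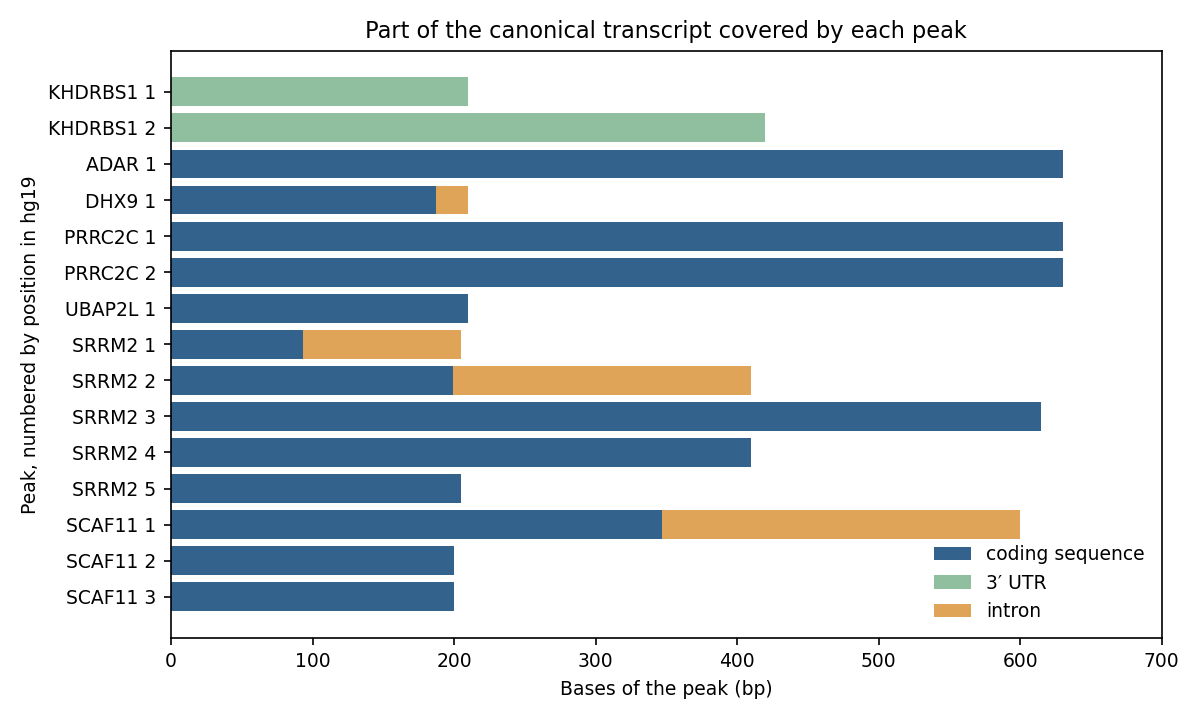
Bases of each of the 15 peaks (x axis, bp) in coding sequence, 3′ UTR and intron of the canonical transcript. Coding sequence fills 9 peaks, 3′ UTR fills the 2 KHDRBS1 peaks, and 4 peaks of DHX9, SRRM2 and SCAF11 hold intron bases.

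Across the 7 genes, most bases were coding in 11 of 15 peaks (73.3%, exact 95% binomial interval 44.9 to 92.2%), against 71 of 246 peaks of other protein-coding genes (28.9%, 23.3 to 35.0%). Most bases were intronic in 2 of the 15, both in SRRM2, against 111 of the 246 (45.1%). The members' peaks lay near splice sites in 53.3% of cases (26.6 to 78.7%), against 41.5% (35.2 to 47.9%) for the 246, with intervals that overlapped. Measured from the midpoint of the peak, the members' share was 20.0%, so the share depends on the measure. The 41.5% of the 246 is from the nearest base and is not to be set beside that value. The median width was 410 bp (200 to 630 bp) in the 7 genes and 400 bp (200 to 3075 bp) in the others, so the widest peaks were elsewhere. No test was made of these differences, because the genes were chosen with their peaks known, and the intervals cover counting error only. Peaks of 1 gene are not independent, and 5 of the 15 come from SRRM2. The 246 include many HMGA2 peaks, all wholly intronic in the canonical transcript, which raise the intronic share of the 246 and lower its coding share.

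**Figure D3:**
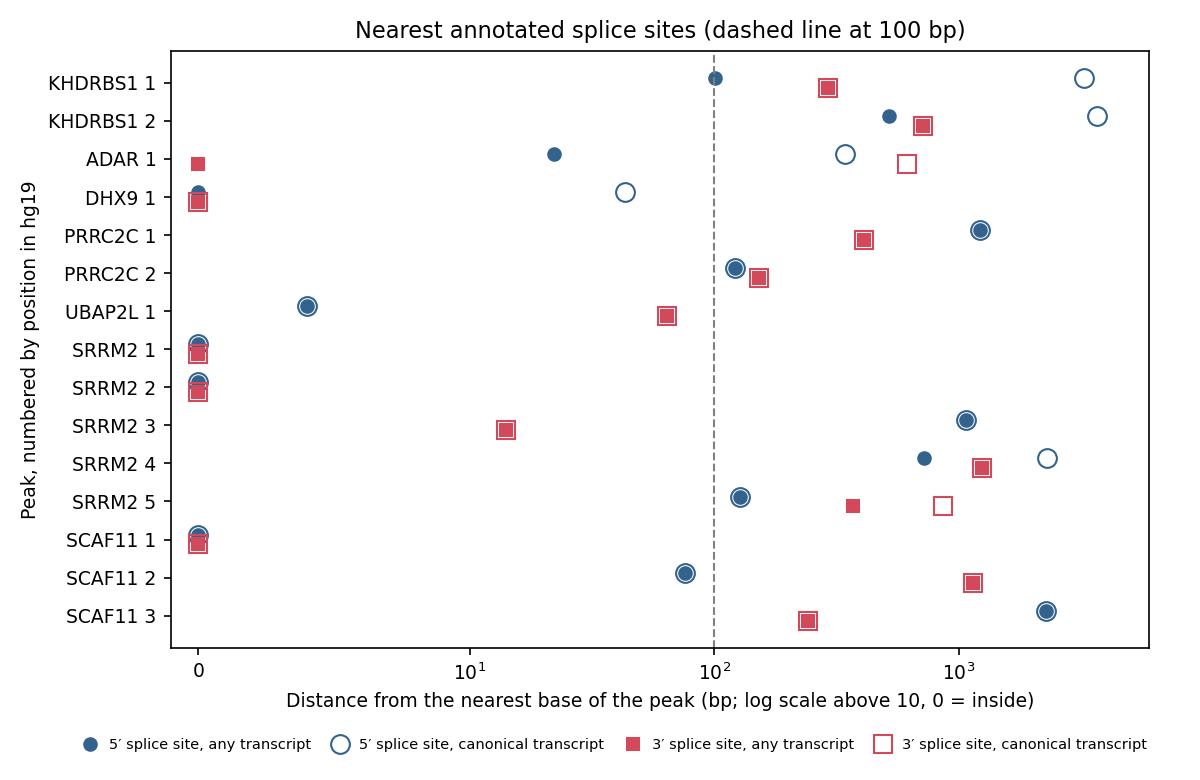
Distance in bp (log scale above 10, with 0 for a site inside the peak) from each of the 15 peaks to the nearest 5′ (circles) and 3′ (squares) splice site, filled for any transcript and open for the canonical transcript. The first KHDRBS1 peak, at 101 bp, lies just outside the dashed line at 100 bp, and the ADAR peak is near splice sites of another transcript only.

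The threshold of 100 bp fell between the first KHDRBS1 peak at 101 bp and the SCAF11 peak at 76 bp. Counted on the canonical transcript alone, 7 of the 15 peaks remained near a splice site, with ADAR the one that dropped out. When the midpoint of the peak was measured in place of its nearest base, 3 of 15 did (20.0%).

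The peaks lay mostly in long exons. Of the 15, 6 were in the longest exon of the gene and 13 in 1 of the 3 longest (86.7%), against 75 (46.3%) and 111 (68.5%) of the 162 peaks of other genes that overlapped a canonical exon. For the 3 longest exons the intervals overlapped (59.5 to 98.3% and 60.8 to 75.6%). Over all 291 peaks of other genes, intronic ones included, the 75 made up 25.8% and the 111 made up 38.1%. Whether the share in the longest exon is above or below that of other genes thus depends on the peaks counted. The share in the 3 longest was above it in both counts. The exons with a peak had a median length of 1351 bp, counted once per peak, against 1027 bp for those 162 peaks. Long exons also hold more of the RNA, as the 3 longest exons made up between 29.5% (UBAP2L) and 83.4% (SRRM2) of the mature transcripts. The exceptions were SRRM2 exons 9 and 10, ranked 11 and 6 of 15 by length.

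**Figure D4:**
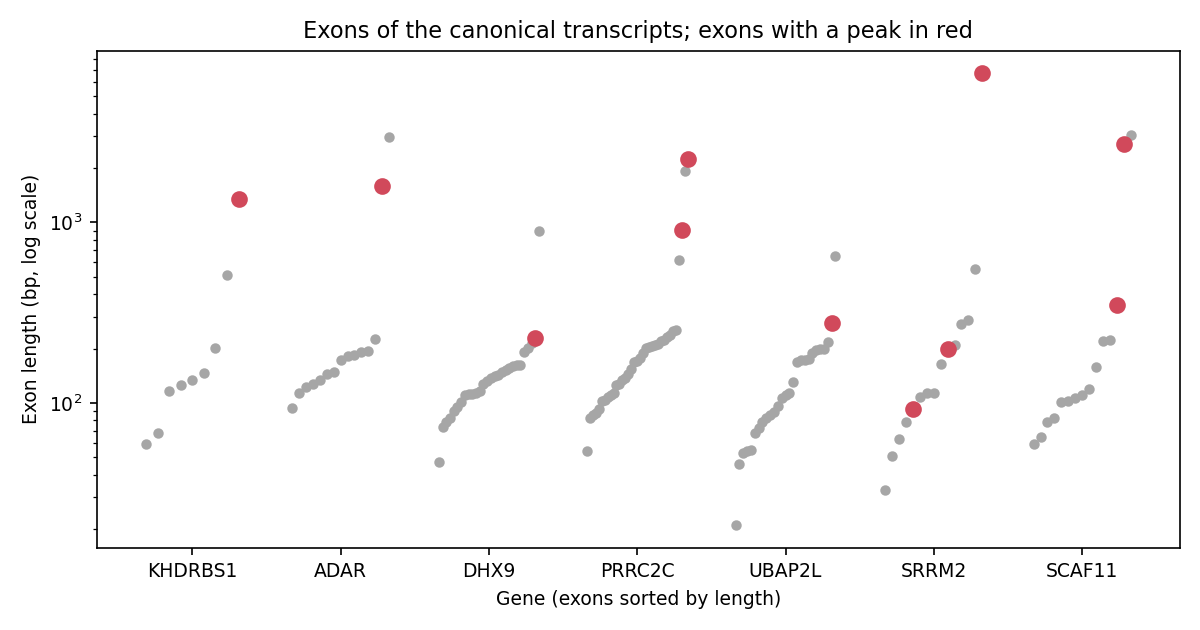
Length of every exon of the 7 canonical transcripts (y axis, bp, log scale), sorted by length within each gene, with the 11 exons that hold a peak in red. The red points lie among the longest exons of each gene except for SRRM2 exons 9 (93 bp) and 10 (199 bp).

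Transcripts of related function were counted from lists of RNA-binding and splicing families, with the 7 genes included. On the chromosomes with listed peaks, 20 of 69 list genes had at least 1 (29.0%), and 13 of 62 did without the 7 (21.0%). These lists were drawn up with the peaks known, so their shares are a description. Among the families reported here, stress granule proteins had 4 of 5 (PRRC2C, UBAP2L, ATXN2 and ATXN2L). The families that count in the totals but are not reported had shares of 66.7% and 42.9%. SR-related proteins had 5 of 16, namely SRRM2, SCAF11, SON, SFSWAP and RSRC2. The KH domain proteins had 2 of 7 (KHDRBS1 and IGF2BP1), hnRNP proteins 2 of 8 (HNRNPU and PCBP2), SR proteins 1 of 6 (SRSF2), and the U2 snRNP 1 of 6 (SF3A1). None of the 11 genes of the tri-snRNP, the particle that contains USP39 itself, had a listed peak, which says little beside the 1.85% of all protein-coding genes on these chromosomes.

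Among the 22 peaks of these 13 other genes, most bases were intronic in 13 (59.1%) and coding in 5 (22.7%, 7.82 to 45.4%), and none was coding throughout, against 9 of the 15 in the 7 genes. Of the 22, 15 lay within 100 bp of a splice site (68.2%, 45.1 to 86.1%) and 10 held a canonical one (45.5%), against 53.3% and 26.7% in the 7 genes. Bases of an annotated retained intron lay in 10 of the 22 (45.5%, 24.4 to 67.8%), against 2 of 15 (13.3%, 1.66 to 40.5%) in the 7 genes and 8 of the 269 peaks of genes outside the lists (2.97%, 1.29 to 5.78%). The HNRNPU peaks at 245021701 to 245021910 and 245023171 to 245023380 on chromosome 1, and the EWSR1 peaks at 29685231 to 29686255 and 29686461 to 29687075 on chromosome 22, lay wholly in such introns. So did the PCBP2 peak on chromosome 12 at 53861801 to 53862000. Of the 7 genes, only SRRM2 had peaks with retained intron bases, and these peaks held whole exons as well. The 269 include peaks of genes that are not protein-coding, which the 246 used above leave out, and the many HMGA2 peaks. None of these held retained intron bases or coding bases of the canonical transcript, which lowers both shares in the 269. The differences were not tested.

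**Figure D5:**
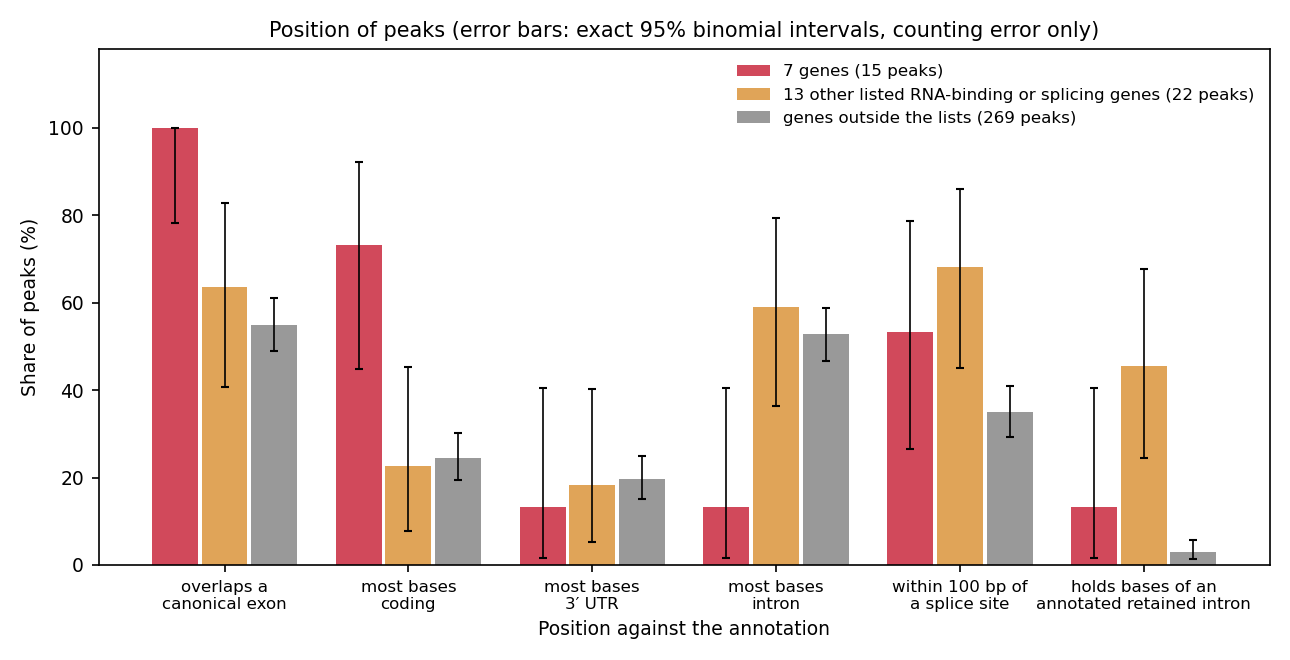
Share of peaks (y axis, %) by position against the annotation for the 7 genes, the 13 other genes of the RNA-binding and splicing lists, and genes outside these lists, with exact 95% binomial intervals that cover counting error only. Coding positions take 73.3% in the 7 genes and 22.7% in the 13 others, and retained introns 13.3% and 45.5%. The genes outside the lists include some that are not protein-coding.

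By chromosome, 5 of the 7 genes and 7 of the 15 peaks were on chromosome 1, where the list holds 19 peaks of 13 genes. Chromosome 12, with 205 peaks, held the 3 SCAF11 peaks, and chromosome 16 the 5 SRRM2 peaks of its 16. No other annotated gene overlapped any of the 15 peaks, against 58 of the 291 other peaks (19.9%). The list gives no strand, so RNA from the opposite strand cannot be told apart at any of these positions.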

How the data were processed

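The authors trimmed the reads, removed rRNA sequences, aligned the rest to hg19 with Tophat (TopHat2 2.0.13 in the submitters' processing notes), and called and annotated peaks with RIPSeeker. How the input library entered the calling, and how multiply aligned reads were treated, is not given in the sources used here. The deposited values are the first and last position of each peak, with no count, enrichment or p-value. The 7 genes, their families and the genes named were chosen with earlier results of these data known, after a supplementary list of the same peaks had been read. Each peak was placed on the gene of its name in GENCODE release 44 (GRCh37), and 306 of 322 genic peaks overlapped it. Distances run from the nearest peak base to the exon base at an intron. Intervals are exact binomial (scipy 1.17.1). Copies were sought with minimap2 2.31, and this search and the interval functions were tested on simulated data. Sequences were read with samtools 1.23.1. Some families and genes that count in the totals are not reported here. The alternatives were other windows, transcripts, overlaps and exon ranks, merged peaks and leaving out genes. No test was made, since each group is 1 library.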

Additional observations from a re-analysis of the deposited data

How the results depend on the processing

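Of 21 alternatives over 7 results, 17 stayed within the 95% binomial interval of the value reported (or, for the width, within 1 bin) and 4 did not. Measured from the midpoint of the peak, 20.0% of the 15 peaks lay within 100 bp of a splice site, in place of 53.3%. Without SRRM2, 0.00% of the remaining 10 peaks held bases of an annotated retained intron, in place of 13.3%, since both such peaks are in SRRM2. After peaks of a gene separated by up to 1000 bp had been joined, the median width was 630 bp over 11 peaks, in place of 410 bp. Over all chromosomes, 13.5% of the 148 list genes had a peak, in place of 29.0%, since the genes counted then include chromosomes with no listed peak. Leaving out SRRM2 for retained introns, and the 7 genes for the families, were chosen after seeing the data. With 15 peaks the intervals are wide, and the peaks were used by position only. No paired analysis was possible because there is 1 library a group.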
